A study of Homo sapiens with 12 samples.

Results

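The genes described here encode the chaperones, folding enzymes and quality-control machinery of the endoplasmic reticulum (ER), together with the sensors and regulators that set their supply. They were chosen by name, as 37 gene symbols of this pathway, and all 37 were found among the 23615 rows of the expression tables. Poly(A) RNA was sequenced from HEK293T, an established line of human embryonic kidney origin into which the large T antigen of SV40 was introduced. All cells were kept for 18 h either in 2 µM CP25, a macrocyclic inhibitor of Dcp2, or in the same volume of its vehicle, a peptide storage buffer. Dcp2 is the enzyme that removes the 5′ cap of an mRNA before the body of the message is degraded. All cells then received actinomycin D, which blocks transcription, at 5 µg/mL, and RNA was collected at 0 h and at 2 h. Each of the 2 treatments was thus sampled at both times, which gives 4 groups of 3 libraries, numbered 1 to 3. The labels do not say whether these came from separate cultures, so p-values below reflect how far the sequenced libraries differ, and that spread may be technical.

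As background, proteins bound for the cell surface or for secretion enter the ER through the Sec61 channel and are folded there by BiP (HSPA5), GRP94 (HSP90B1), the calnexin and calreticulin cycle and the protein disulfide isomerases. Proteins that fail to fold are sent back to the cytosol and degraded, a route known as ER-associated degradation, which is built around the ubiquitin ligase HRD1 (SYVN1) and its partner SEL1L. The sensors IRE1 (ERN1), PERK (EIF2AK3) and ATF6 lie in the ER membrane and start the unfolded protein response when folding is overloaded. IRE1 does so by cutting a short intron out of XBP1 mRNA, which changes the reading frame of the message.

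That intron and the promoter elements through which ATF6 and XBP1 proteins act are printed here, because they tie the sensors to the chaperone genes whose mRNA levels follow. The XBP1 intron is 26 bases long and lies in exon 4 of the coding transcript, placed here at chr22:28796124-28796149 on the minus strand of GRCh38. It is shown in capitals, with the flanking exon in lower case, from the GENCODE 29 transcripts with and without it. The letters GCAG stand both before the capitals and at their end, so a slightly shifted placement gives the same spliced message. The transcripts therefore fix the length of the intron but not the exact cut sites. The coding length of the message is 783 bases with the intron and 1128 bases without it. The FPKM of XBP1 counts both forms together, so splicing was not measured.
XBP1 intron: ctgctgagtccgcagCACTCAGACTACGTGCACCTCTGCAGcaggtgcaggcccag

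The ER stress response element has the letters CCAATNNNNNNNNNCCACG, and the second such element, ERSE-II, has the letters ATTGGNCCACG. Both were searched on both strands in windows from 250 bases before to 50 bases after the transcript starts of RefSeq (GRCh38.p14), of which the table used here holds 35116. A window was found for 34 of the 37 genes, and DERL1, PDIA3 and FKBP14 had no entry. The first element was found in 7 of the 34 genes (XBP1, HSPA5, HSP90B1, CRELD2, CALR, CANX and PDIA6). Over all 27305 gene symbols with a window it was found in 0.0916% of symbols (0.0769% of windows). ERSE-II was found in 3 of the 34 genes (HERPUD1, HYOU1 and SDF2L1) and in 0.0696% of all symbols (0.0541% of windows). Another motif, TGACGTGG, the core that XBP1 and ATF6 are known to bind, was found in HYOU1, TXNDC5 and TXNDC11 and in 0.927% of all symbols (0.729% of windows). In HYOU1 it overlaps the first of the gene's 2 ERSE-II matches. A match is a description of the letters and was not tested for binding. The stretches below lie upstream of the annotated start, with the defining letters of each element in capitals, read on the strand of the gene, so an element in the opposite direction appears as its reverse complement.
HSPA5, chr9:125241371-125241429, minus strand, 86 to 28 bases before the start: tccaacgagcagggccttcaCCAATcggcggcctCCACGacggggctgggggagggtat
HSP90B1, chr12:103930196-103930359, plus strand, 214 to 51 bases before the start: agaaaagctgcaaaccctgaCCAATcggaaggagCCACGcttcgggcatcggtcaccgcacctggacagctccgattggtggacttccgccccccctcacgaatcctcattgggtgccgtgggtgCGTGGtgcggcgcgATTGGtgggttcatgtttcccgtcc
XBP1, chr22:28800583-28800641, minus strand, 72 to 14 bases before the start: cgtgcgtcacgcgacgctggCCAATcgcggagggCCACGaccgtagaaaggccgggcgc
HERPUD1, chr16:56932005-56932055, plus strand, 137 to 87 bases before the start: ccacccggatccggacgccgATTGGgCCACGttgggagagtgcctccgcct
SDF2L1, chr22:21642094-21642144, plus strand, 208 to 158 bases before the start: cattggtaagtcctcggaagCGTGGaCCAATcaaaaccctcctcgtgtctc
HYOU1, chr11:119057254-119057410, minus strand, 205 to 49 bases before the start: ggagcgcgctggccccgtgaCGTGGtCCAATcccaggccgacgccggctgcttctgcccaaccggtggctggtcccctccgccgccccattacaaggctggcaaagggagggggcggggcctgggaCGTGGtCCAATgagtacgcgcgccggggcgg

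Levels are FPKM, fragment counts scaled to transcript length and library size, as the authors deposited them. The depth, estimated from the value that 1 fragment takes in the lowest rows, came to between 13.0 and 22.1 × 10⁶ fragments in the libraries of 0 h and to between 21.8 and 29.2 × 10⁶ in those of 2 h. The fewest fragments behind any value of these genes were about 75.7, for DNAJB9 in CP25 at 2 h. All 37 genes averaged at least 1 FPKM over the libraries of each main fit and entered all main fits. The labelled line was checked against markers. KRT18, a keratin of simple epithelia, lay at 30.7 to 40.9 FPKM, its partner KRT8 at 2.08 to 5.32 FPKM, PAX2, a factor of kidney development, at 0.616 to 2.02 FPKM and VIM at 163 to 275 FPKM, whereas EPCAM and CDH1, which define many epithelia, stayed at or below 0.943 and 0.704 FPKM. None of the 5 haematopoietic and none of the 4 keratinocyte or glandular markers reached a mean of 1 FPKM in any group. Their summed levels were at most 1.42 and 1.47 FPKM in any library, and CD3E, HBB and KRT5 were listed at 0 in all 12 libraries. Of 5 fibroblast or endothelial markers 2 reached a mean of 1 FPKM in every group, COL1A1 at 2.55 to 3.83 FPKM and COL3A1 at 0.686 to 1.52 FPKM over the libraries, and the list summed to 3.27 to 5.39 FPKM. DCN, PECAM1 and VWF, the other markers of that list, stayed at or below 0.186 FPKM. Of 5 markers of differentiated kidney epithelium only LRP2 reached a mean of 1 FPKM, at 1.98 to 3.37 FPKM.

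Before the block the module spanned a wide range of abundance. The 8 abundant chaperones and isomerases (HSPA5, HSP90B1, CALR, CANX, PDIA3, PDIA4, PDIA6 and P4HB) held 61.3 to 63.7% of the summed FPKM of the 37 genes at 0 h and 63.8 to 66.0% at 2 h. The 6 sensors and regulators (ERN1, EIF2AK3, ATF6, XBP1, HERPUD1 and DNAJB9) held 3.47 to 3.61% at 0 h and 1.63 to 2.36% at 2 h. The 0 h and 2 h ranges did not overlap for either set. XBP1 stood out among the regulators with 69.8 to 75.6 FPKM at 0 h, while ERN1, the kinase and nuclease that splices it, lay at 1.81 to 2.10 FPKM.

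**Figure D1:**
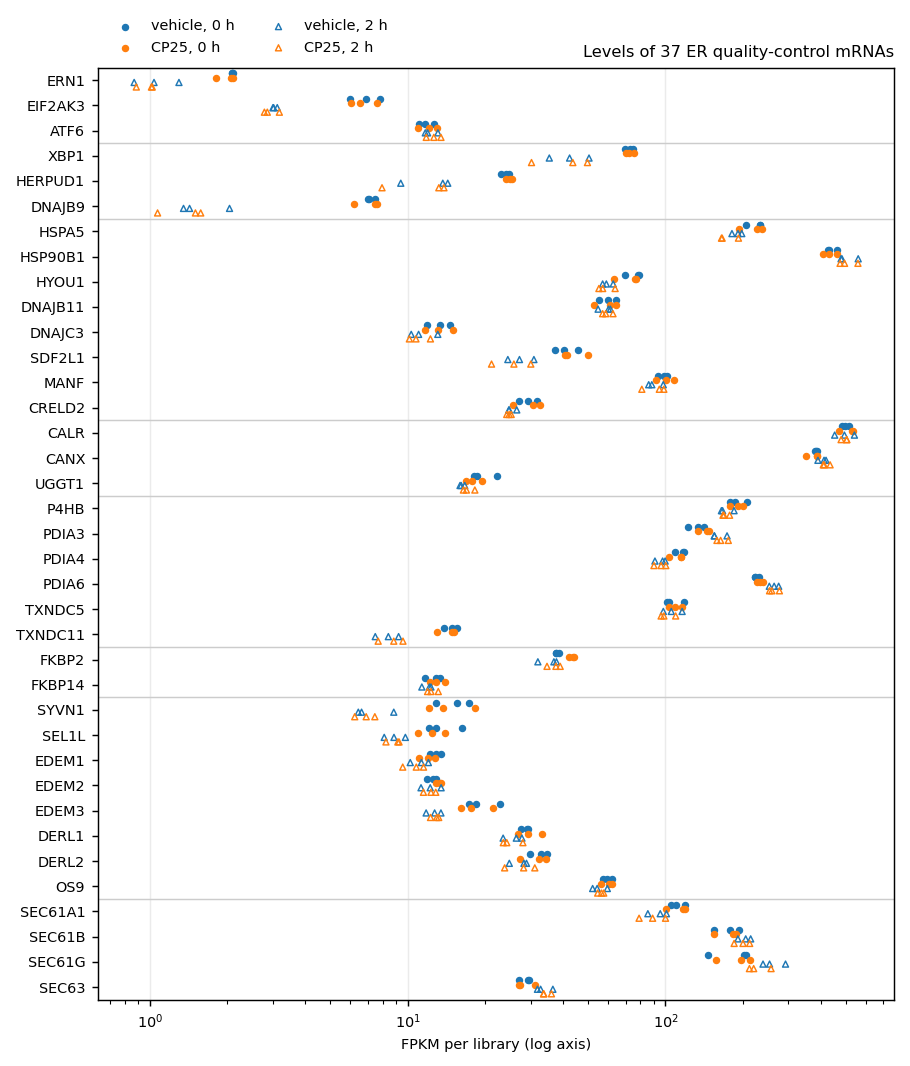
FPKM of the 37 ER quality-control mRNAs in each of the 12 libraries, on a log axis, with 1 point per library; filled circles are 0 h and open triangles 2 h of actinomycin D, blue is vehicle and orange CP25, and grey lines separate the roles. DNAJB9, EIF2AK3, ERN1, XBP1, HERPUD1 and SYVN1 show triangles left of all circles, and vehicle and CP25 libraries of one time overlap in every row except FKBP2 at 0 h.

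The next question was how much of each mRNA was present after 2 h of the transcription block. FPKM is a share of each library, and the 2 times come from 2 separately deposited tables, so levels at 2 h are described against 0 h without a test and are read against the other genes. In RNA from a whole culture, fewer cells that express a gene and less RNA per cell cannot be told apart. The log2 ratio of (FPKM + 1) at 2 h to 0 h had a median of −0.18 over all tested genes in vehicle and −0.16 in CP25. Over the 37 genes the median was −0.19 in vehicle and −0.17 in CP25, and 19 of 37 lay below the median of all genes in each. Seen as a whole, the module sat at the centre of the transcriptome. Its members spread from −1.65 (DNAJB9) to 0.50 (SEC61G) in vehicle and from −1.76 (DNAJB9) to 0.28 (SEC61G) in CP25.

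A log2 ratio of −1 or below was reached by 1 of 37 members in vehicle, DNAJB9, against 7.37% of all genes. In CP25 it was reached by 2, DNAJB9 and HERPUD1, against 7.26% of all genes. A ratio of 0.5 or above was reached by SEC61G in vehicle and by no member in CP25, against 1.41% and 1.49% of all genes. All 3 libraries at 2 h lay below all 3 at 0 h for 18 members in vehicle and 16 in CP25, against 46% and 44% of all genes. They lay above for 6 members and 5 members, against 15% and 15.5%. These shares are near those of all genes or rest on 1 or 2 members, so they single out no excess in the module. Zero on this scale is arbitrary: with every library centred on its median, all ratios move up by the same amount, the median of all genes becomes 0.17 in both treatments, and 27 of 37 members lie above 0 in each, where 8 in vehicle and 9 in CP25 did before. Statements of high or low below are therefore relative to the median of all genes, which centring does not alter.

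**Figure D2:**
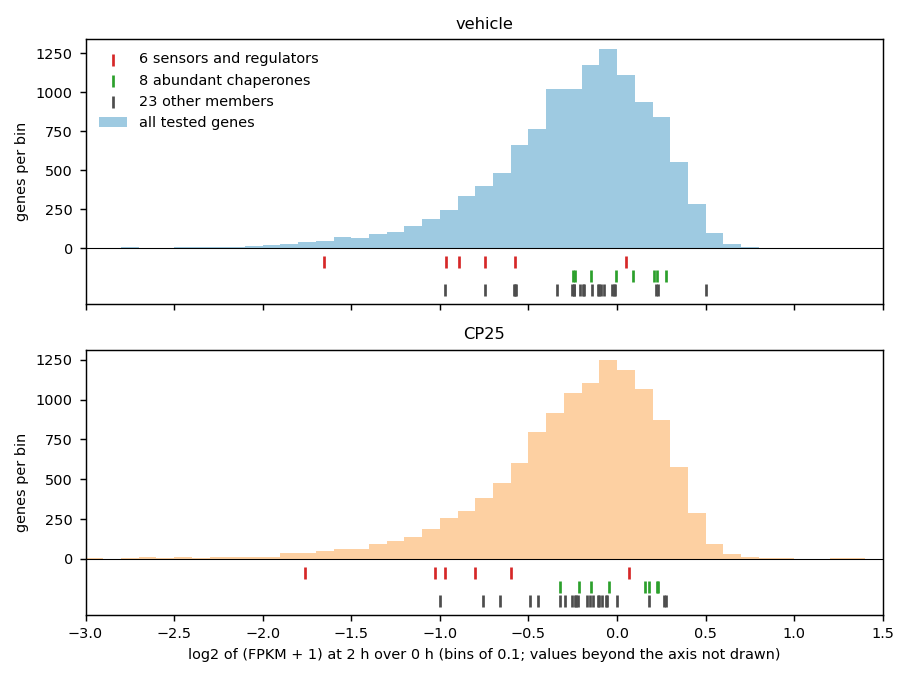
Number of tested genes (y axis) in bins of 0.1 of the log2 ratio of (FPKM + 1) at 2 h over 0 h (x axis) in vehicle and CP25; ticks under each histogram mark 6 sensors and regulators (red), 8 abundant chaperones (green) and the 23 other members (grey). In both treatments 5 of the 6 red ticks lie between −0.58 and −1.76, below the median of all genes, whereas the green ticks lie between −0.32 and 0.28.

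The sensors differed from each other. ERN1, which encodes IRE1, measured 2.08, 2.09 and 2.08 FPKM in vehicle and 2.102, 1.81 and 2.07 FPKM in CP25 at 0 h, and 0.869, 1.04 and 1.297 FPKM in vehicle and 1.01, 0.886 and 1.02 FPKM in CP25 at 2 h. It kept 51.2 ± 5.96% of the 0 h level in vehicle and 48.9 ± 3.18% in CP25 (SE over 3 and 3 libraries, here and below), and all 2 h libraries lay below all 0 h libraries in both treatments. EIF2AK3, which encodes PERK, the kinase that slows translation under stress, measured 7.84, 5.96 and 6.88 FPKM in vehicle and 7.61, 6.03 and 6.52 FPKM in CP25 at 0 h, and 3.12, 3.02 and 3.003 FPKM in vehicle and 2.78, 3.18 and 2.85 FPKM in CP25 at 2 h. This mRNA stood at 44.2 ± 3.53% of the 0 h level in vehicle and 43.7 ± 3.54% in CP25, again with no overlap between times. ATF6, the precursor of a transcription factor that is cut free in the Golgi, measured 12.6, 11.1 and 11.7 FPKM in vehicle and 12.99, 10.97 and 12.1 FPKM in CP25 at 0 h, and 11.7, 13.1 and 11.9 FPKM in vehicle and 11.8, 13.5 and 12.6 FPKM in CP25 at 2 h. Its libraries at 2 h overlapped those at 0 h, at 104 ± 5.47% of the 0 h level in vehicle and 105 ± 6.48% in CP25, which put ATF6 at percentile 72.5 in vehicle and 72.4 in CP25 among all genes where EIF2AK3 stood at percentile 8.24 in vehicle and 7.83 in CP25.

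The 3 regulators downstream of the sensors all stood low at 2 h. XBP1, the transcription factor made from the IRE1 target, measured 69.8, 72.9 and 74.7 FPKM in vehicle and 70.5, 71.95 and 75.6 FPKM in CP25 at 0 h, and 42.5, 35.4 and 50.5 FPKM in vehicle and 43.7, 30.2 and 49.8 FPKM in CP25 at 2 h. HERPUD1, a membrane scaffold of the HRD1 complex, measured 22.999, 24.1 and 24.7 FPKM in vehicle and 25.5, 24.8 and 24.03 FPKM in CP25 at 0 h, and 13.7, 9.40 and 14.3 FPKM in vehicle and 13.2, 7.95 and 13.8 FPKM in CP25 at 2 h. In both genes library 2 was the lowest of its group at 2 h, in vehicle and in CP25 alike, and neither gene's 0 h libraries overlapped with those at 2 h. XBP1 retained 59.1 ± 6.13% of the 0 h level in vehicle and 56.8 ± 8.05% in CP25, and HERPUD1 retained 52.1 ± 6.53% of the 0 h level in vehicle and 47.1 ± 7.56% in CP25. DNAJB9, which encodes ERdj4, a BiP cofactor that helps to turn IRE1 off, measured 7.45, 7.06 and 7.02 FPKM in vehicle and 7.62, 6.17 and 7.46 FPKM in CP25 at 0 h, and 2.04, 1.43 and 1.35 FPKM in vehicle and 1.502, 1.07 and 1.57 FPKM in CP25 at 2 h. It was the lowest of all 37 genes, with 22.3 ± 3.06% of the 0 h level in vehicle and 19.5 ± 2.55% in CP25, at percentile 1.72 in vehicle and 1.27 in CP25. The log2 ratios with 1 added understate the difference for such low mRNAs: with 0.1 added, the ratio of DNAJB9 was −2.09 in vehicle and −2.28 in CP25, that of EIF2AK3 −1.15 and −1.17, and that of ERN1 −0.90 and −0.96.

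Lumenal chaperones and their cofactors spread around the median of all genes, with 5 of 8 below it in each treatment and their own median at −0.20 (vehicle) and −0.25 (CP25) on the log2 scale. BiP, encoded by HSPA5, measured 234, 205 and 232 FPKM in vehicle and 226, 192 and 237 FPKM in CP25 at 0 h, and 198, 191 and 181 FPKM in vehicle and 192, 166 and 165 FPKM in CP25 at 2 h. GRP94, encoded by HSP90B1, measured 462, 429.9 and 427 FPKM in vehicle and 463, 408 and 430.02 FPKM in CP25 at 0 h, and 559, 484 and 479.8 FPKM in vehicle and 558, 495 and 476 FPKM in CP25 at 2 h. Within each treatment every HSPA5 library at 2 h lay below those at 0 h, in CP25 only by 191.94 against 192.15 FPKM. HSPA5 kept 84.9 ± 4.09% of the 0 h level in vehicle and 79.8 ± 6.37% in CP25. Every HSP90B1 library at 2 h lay above all those at 0 h, at 115 ± 6.59% of the 0 h level in vehicle and 117 ± 7.20% in CP25. Among all genes HSPA5 stood at percentile 44.7 in vehicle and 36.1 in CP25, and HSP90B1 at 85.3 and 87.0. The ratio of HSP90B1 to HSPA5 was 1.82 to 2.12 in the 6 libraries at 0 h and 2.53 to 2.98 in the 6 at 2 h. Since both genes are read from the same libraries, a scale factor of a table cancels in this ratio. HYOU1, an Hsp70-like exchange factor for BiP, kept 78.9 ± 3.76% of the 0 h level in vehicle and 81.2 ± 6.22% in CP25. DNAJB11 (ERdj3) and DNAJC3 (p58IPK), J-domain cofactors of BiP, kept 98.1% and 86.4% in vehicle and 100.1% and 83.5% in CP25, with overlapping libraries. MANF, a secreted stress factor that binds BiP, kept 92.8% and 91.0%, and CRELD2, a secreted ER stress protein, 86.1% and 83.4%.

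SDF2L1, which works with ERdj3 to keep clients soluble, had the lowest ratio of the 8. It measured 37.2, 40.5 and 45.96 FPKM in vehicle and 40.7, 41.5 and 49.95 FPKM in CP25 at 0 h, and 27.1, 24.5 and 30.9 FPKM in vehicle and 25.8, 21.2 and 30.04 FPKM in CP25 at 2 h. Its libraries did not overlap between the times, at 66.7 ± 6.10% of the 0 h level in vehicle and 58.3 ± 7.02% in CP25. Library 2 was again the lowest at 2 h in both treatments.

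In the lectin cycle CALR and CANX stood above the median of all genes, at percentiles 67.3 and 76.2 in vehicle and 60.9 and 80.7 in CP25. Calreticulin mRNA, CALR, measured 515, 482 and 497 FPKM in vehicle and 534, 473 and 529.8 FPKM in CP25 at 0 h, and 541, 495 and 453 FPKM in vehicle and 505, 505 and 480.1 FPKM in CP25 at 2 h. Calnexin mRNA, CANX, measured 386, 379 and 383 FPKM in vehicle and 387, 352 and 388 FPKM in CP25 at 0 h, and 390.3, 419.5 and 412 FPKM in vehicle and 409, 435 and 413 FPKM in CP25 at 2 h. CALR libraries overlapped between times, at 99.6 ± 5.42% of the 0 h level in vehicle and 96.9 ± 4.07% in CP25, and CANX libraries at 2 h lay above those at 0 h, at 106 ± 2.36% of the 0 h level in vehicle and 112 ± 4.09% in CP25. UGGT1, the glucosyltransferase that marks unfolded glycoproteins for another round, was at 16.8 to 22.2 FPKM at 0 h and 16.0 to 18.2 FPKM at 2 h. It kept 82.9 ± 5.66% of the 0 h level in vehicle and 95.6 ± 5.06% in CP25, and its libraries separated in vehicle but overlapped in CP25.

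Among the disulfide isomerases, PDIA3 and PDIA6 stood high and TXNDC11 low. PDIA3 (ERp57), the partner of calnexin and calreticulin, measured 141, 134 and 123 FPKM in vehicle and 145, 134 and 147 FPKM in CP25 at 0 h, and 173, 155 and 155 FPKM in vehicle and 175, 158 and 164 FPKM in CP25 at 2 h. PDIA6 (P5), an isomerase that works with BiP, measured 222, 223 and 231 FPKM in vehicle and 232, 226 and 238 FPKM in CP25 at 0 h, and 275, 253 and 264 FPKM in vehicle and 277, 253 and 259 FPKM in CP25 at 2 h. Every 2 h library exceeded every 0 h library for both genes, with 121 ± 6.75% of the 0 h level in vehicle and 117 ± 4.92% in CP25 for PDIA3 and 117 ± 3.20% of the 0 h level in vehicle and 113 ± 3.49% in CP25 for PDIA6. P4HB, the founding protein disulfide isomerase, kept 90.3% in each treatment, PDIA4 kept 84.0% and 86.1%, and TXNDC5 98.9% and 92.8%. TXNDC11, a thioredoxin-related membrane protein that works with EDEM proteins, measured 15.5, 13.8 and 14.8 FPKM in vehicle and 15.1, 13.03 and 14.9 FPKM in CP25 at 0 h, and 7.49, 8.41 and 9.22 FPKM in vehicle and 7.68, 8.83 and 9.59 FPKM in CP25 at 2 h. It kept 56.9 ± 3.93% of the 0 h level in vehicle and 60.7 ± 4.76% in CP25, with all 2 h libraries below all 0 h libraries. The prolyl isomerases FKBP2 and FKBP14 kept 93.6% and 94.6% in vehicle and 85.5% and 96.0% in CP25.

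ER-associated degradation held both the ligase, whose mRNA stood low, and the recognition factors EDEM1, EDEM2 and OS9, near or above the median of all genes. SYVN1, the HRD1 ligase, measured 17.3, 12.9 and 15.6 FPKM in vehicle and 18.3, 12.1 and 13.7 FPKM in CP25 at 0 h, and 6.62, 6.43 and 8.83 FPKM in vehicle and 6.90, 6.23 and 7.46 FPKM in CP25 at 2 h. SEL1L, which stabilises HRD1 and brings it substrates, measured 16.3, 12.1 and 12.9 FPKM in vehicle and 14.002, 11.01 and 12.4 FPKM in CP25 at 0 h, and 8.11, 9.80 and 8.85 FPKM in vehicle and 8.24, 9.26 and 9.16 FPKM in CP25 at 2 h. Both were highest in library 1 and lowest in library 2 at 0 h, in vehicle and in CP25. SYVN1 kept 47.8 ± 6.42% of the 0 h level in vehicle and 46.7 ± 6.37% in CP25, and SEL1L kept 64.8 ± 6.98% of the 0 h level in vehicle and 71.3 ± 5.59% in CP25, with separated libraries. The 3 EDEM genes encode mannosidase-like proteins that commit misfolded glycoproteins to disposal. EDEM3 measured 22.7, 17.3 and 18.4 FPKM in vehicle and 21.4, 16.1 and 17.6 FPKM in CP25 at 0 h, and 11.8, 12.7 and 13.5 FPKM in vehicle and 12.95, 12.3 and 13.2 FPKM in CP25 at 2 h, and it kept 64.995 ± 6.05% of the 0 h level in vehicle and 69.6 ± 6.18% in CP25. EDEM1 kept 86.9% and 89.0% and EDEM2 99.0% and 92.6%, so EDEM3 stood below its relatives in both treatments. The channel-like derlins DERL1 and DERL2 kept 90.3% and 84.2% in vehicle and 84.8% and 88.6% in CP25. OS9, a lectin that hands glycoproteins to SEL1L, kept 93.0% and 94.2%.

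The subunits of the Sec61 channel stood on both sides of the median of all genes at 2 h. SEC61A1, which forms the pore, measured 110.1, 105 and 119 FPKM in vehicle and 119, 100.3 and 117 FPKM in CP25 at 0 h, and 85.5, 101 and 95.4 FPKM in vehicle and 79.01, 100.04 and 89.2 FPKM in CP25 at 2 h. Its small partner SEC61B measured 154, 178 and 192 FPKM in vehicle and 155, 188 and 184 FPKM in CP25 at 0 h, and 205, 214 and 191 FPKM in vehicle and 185, 199.9 and 212 FPKM in CP25 at 2 h. The other small partner, SEC61G, measured 146, 202 and 205 FPKM in vehicle and 158, 213 and 197 FPKM in CP25 at 0 h, and 292, 239 and 253 FPKM in vehicle and 257, 212 and 219.9 FPKM in CP25 at 2 h. Within each treatment SEC61A1 at 2 h lay below its 0 h libraries, in CP25 only by 100.04 against 100.3 FPKM. It kept 84.2 ± 5.16% of the 0 h level in vehicle and 79.7 ± 6.88% in CP25. SEC61G kept 142 ± 16.9% of the 0 h level in vehicle and 121 ± 12.9% in CP25, and SEC61B 116 ± 8.37% of the 0 h level in vehicle and 113 ± 8.07% in CP25. SEC61G libraries separated between times in vehicle and overlapped in CP25. In both treatments library 1 at 0 h was the lowest of its group for SEC61G and SEC61B. Without that library the log2 ratio of SEC61G was 0.36 instead of 0.50 in vehicle and 0.16 instead of 0.28 in CP25, and that of SEC61B was 0.13 instead of 0.22 and 0.10 instead of 0.18. Library 1 at 0 h had an estimated depth of 13.0 × 10⁶ fragments in vehicle, the lowest of the 12 libraries, and of 19.8 × 10⁶ in CP25, and the part of depth in these values was not tested. SEC63, a J-domain protein that recruits BiP to the channel, was at 26.9 to 31.3 FPKM at 0 h and 31.9 to 36.6 FPKM at 2 h, and kept 118 ± 6.10% of the 0 h level in vehicle and 121 ± 6.55% in CP25.

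**Figure D3:**
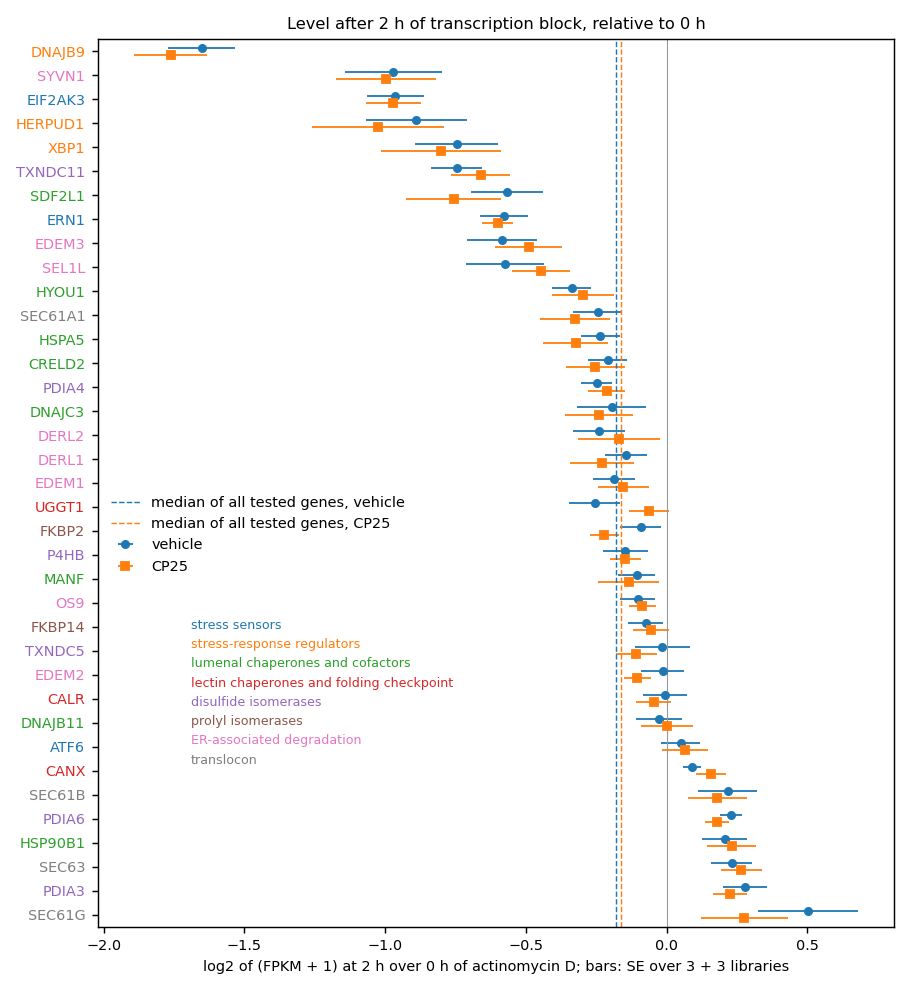
Log2 ratio of (FPKM + 1) at 2 h over 0 h for each member (rows, ordered by the mean of both treatments, coloured by role), for vehicle (blue circles) and CP25 (orange squares), with SE over 3 and 3 libraries; dashed lines mark the median of all tested genes, −0.18 and −0.16. DNAJB9 lies lowest at −1.65 and −1.76, and PDIA3, SEC63, HSP90B1, PDIA6 and SEC61G lie highest.

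Taking the roles in order of their median in vehicle, the regulators stood at −0.89, the sensors at −0.58, ER-associated degradation at −0.21, the lumenal chaperones at −0.20, the prolyl and disulfide isomerases both at −0.08, the lectin cycle at −0.01 and the translocon at 0.22. In CP25 the same roles stood at −1.03, −0.60, −0.20, −0.25, −0.14, −0.13, −0.05 and 0.22. Groups of 2 to 8 genes each lie behind these medians, and the ranges of members of neighbouring roles in this order overlap in both treatments.

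Set against each other within each library, the sensors and regulators and the abundant chaperones gave a difference that centring of a library cannot alter. The mean log2 of the 6 sensors and regulators minus that of the 8 chaperones was −4.24 ± 0.0069 in vehicle and −4.25 ± 0.032 in CP25 at 0 h (SD, n = 3). At 2 h it was −5.06 ± 0.085 in vehicle and −5.12 ± 0.14 in CP25. Values ran from −4.28 to −4.22 over the 6 libraries at 0 h and from −5.25 to −4.97 over the 6 at 2 h, with no overlap between times and with overlap between treatments at each time. ATF6 counts among the 6 and did not share the low level, so the difference rests on the other 5. XBP1 FPKM divided by HSPA5 FPKM showed the same order, at 0.325 ± 0.028 in vehicle and 0.335 ± 0.034 in CP25 at 0 h against 0.226 ± 0.048 and 0.237 ± 0.060 at 2 h. For this ratio the times did not overlap within a treatment, but library 3 of CP25 at 2 h, at 0.302, lay above library 1 of vehicle at 0 h, at 0.299. Within each group at 2 h, library 2 had the lowest value on both measures and library 3 the highest.

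**Figure D4:**
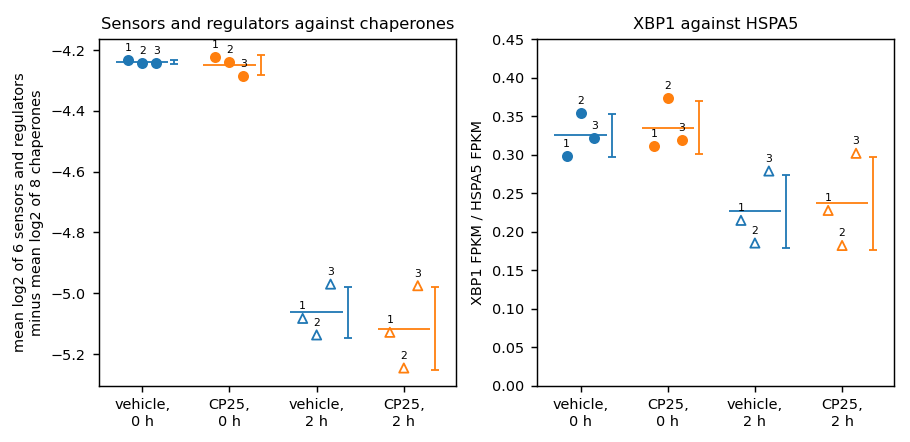
Left, the mean log2 of (FPKM + 1) of 6 sensors and regulators minus that of 8 abundant chaperones, and right, XBP1 FPKM over HSPA5 FPKM, per library (points, numbered by replicate) in the 4 groups; horizontal lines are means and bars SD (n = 3). On the left, all 6 libraries at 0 h lie between −4.28 and −4.22 and all 6 at 2 h between −5.25 and −4.97.

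The genes with an ER stress element did not form one class at 2 h. Of the 7 with the first element, XBP1 kept 59.1% in vehicle, HSPA5 84.9% and CRELD2 86.1%, while CALR, CANX, HSP90B1 and PDIA6 kept 99.6%, 106%, 115% and 117%. Of the 3 with ERSE-II, HERPUD1 kept 52.1%, SDF2L1 66.7% and HYOU1 78.9%. Transcript features were compared as a description across genes, which share the 12 libraries and are not replicates. The Spearman correlation of the mean log2 ratio with transcript length was −0.15 over the 37 members and −0.21 over 10828 genes with a GENCODE 29 transcript, and that with GC content was −0.15 and −0.32. For 3′ UTR length it was −0.06 and −0.10, and for the number of ATTTA pentamers in the 3′ UTR −0.17 and 0.00.

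The effect of the decapping inhibitor was tested as CP25 against vehicle within each time, with limma across all genes and Benjamini-Hochberg adjustment. None of the 37 members passed an adjusted p of 0.05 at 0 h, where 0% of 12365 genes did. None passed at 2 h, where 0.00851% of 11745 genes, a single gene outside the module, did. None passed for the difference of the 2 effects, where 0% of 12183 genes did. By unadjusted limma p under 0.05 the counts were 1 member at 0 h against 0.712% of all genes, no member at 2 h against 0.741%, and no member for the difference against 1.26%. At 0 h, 18 members were higher and 19 lower in CP25, with a median log2 difference of −0.01. At 2 h, 15 were higher and 22 lower, also with a median of −0.01. The intervals of this fit, which has no replicate block, bound what could have been missed, as fold changes of FPKM + 1. On that scale the 95% interval excluded a 1.5-fold change for 37 of 37 members at 0 h and for all but HERPUD1 at 2 h. In the difference it did so for all but HERPUD1, SEC61G and SDF2L1, and it excluded a 2-fold change for all 37 in each. Adding 1 shrinks the fold changes of low mRNAs. For ERN1 and DNAJB9, with vehicle means of 1.07 and 1.60 FPKM at 2 h, the bounds therefore need not hold for FPKM itself.

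FKBP2, an ER prolyl isomerase, had the smallest p at 0 h. It measured 37.6, 38.7 and 37.7 FPKM in vehicle and 44.1, 43.9 and 42.3 FPKM in CP25 at 0 h, and 36.9, 31.99 and 37.8 FPKM in vehicle and 37.6, 34.7 and 39.05 FPKM in CP25 at 2 h. All 3 CP25 libraries lay above all 3 vehicle libraries at 0 h, as for 1.23% of all genes, and no member lay below in that way, as 2.85% did. The log2 difference was 0.19 (95% interval 0.07 to 0.31, limma adjusted p = 1.00), the smallest unadjusted p of the 37 members. At 2 h the FKBP2 libraries overlapped, with a log2 difference of 0.06 (95% interval −0.14 to 0.26, limma adjusted p = 1.00). The effect at 2 h minus that at 0 h was −0.13 (95% interval −0.34 to 0.09, limma adjusted p = 1.00), so a difference between the times was not established.

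The other members with the smallest p at 0 h were EDEM1, EDEM2, PDIA3 and UGGT1. Their log2 differences, CP25 minus vehicle, were −0.10 (SE 0.070), 0.08 (SE 0.056), 0.10 (SE 0.078) and −0.11 (SE 0.093), each with an adjusted limma p of 1.00. At 2 h no member had separated libraries, where 2.47% of all genes lay higher and 1.75% lower in every CP25 library. The smallest p values there belonged to SEC61G at −0.19 (95% interval −0.43 to 0.05), HSPA5 at −0.13 (95% interval −0.31 to 0.06) and UGGT1 at 0.08 (SE 0.068). DNAJB9 at −0.13 (SE 0.14) and FKBP14 at 0.06 (SE 0.071) followed, and the adjusted limma p was 1.00 for all 5. The libraries of the 2 treatments overlapped for each of these genes, but the numbers pair the libraries at 2 h. With the replicate number as a block the 95% interval was −0.24 to −0.02 for HSPA5 and −0.28 to −0.10 for SEC61G, each with a limma adjusted p of 0.716. In that fit these 2 members had an unadjusted p under 0.05, as did 6.93% of all genes.

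For the difference of effects, 2 h minus 0 h, the 5 smallest p values belonged to UGGT1, FKBP2, SEC61G, SDF2L1 and EDEM2. UGGT1 had 0.19 (SE 0.12), SEC61G −0.23 (SE 0.21), SDF2L1 −0.20 (SE 0.19) and EDEM2 −0.09 (SE 0.099), all with an adjusted limma p of 1.00. That of SEC61G was −0.07 without library 1 of vehicle at 0 h and −0.36 without library 1 of CP25 at 0 h. For the regulators, which stood lowest at 2 h, the differences were −0.07 for XBP1 (95% interval −0.56 to 0.42), −0.15 for HERPUD1 (−0.70 to 0.40) and −0.10 for DNAJB9 (−0.47 to 0.26). In the authors' deposited table of comparisons no member had a p-value under 0.05, against 0.495% of all rows at 0 h and 0.313% at 2 h. At shares this low, the absence of members does not set the module apart. The smallest p-values of members there were 0.142 for FKBP2 at 0 h and 0.101 for SEC61G at 2 h.

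**Figure D5:**
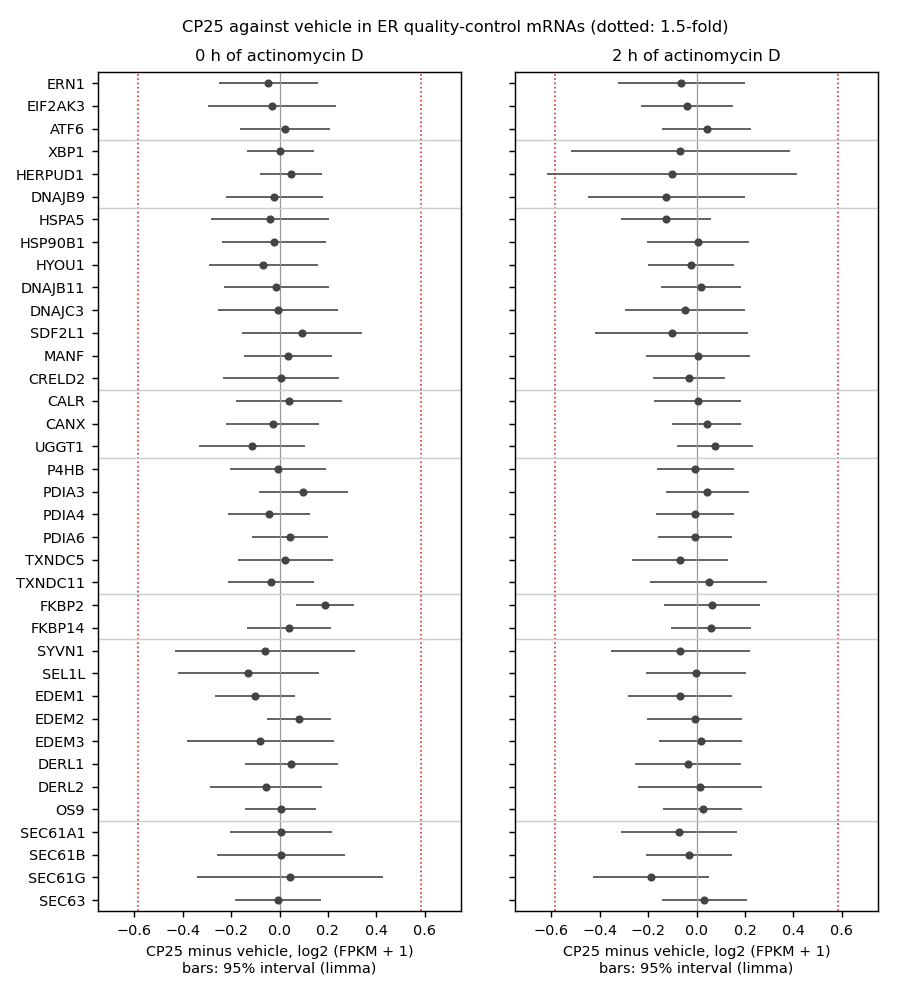
CP25 minus vehicle in log2 of (FPKM + 1) for each of the 37 members at 0 h (left) and 2 h (right). Points are limma estimates from 3 and 3 libraries, bars 95% intervals, and dotted red lines mark 1.5-fold of FPKM + 1. Every interval at 0 h lies inside the dotted lines, and at 2 h that of HERPUD1 reaches −0.62.

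The wider pathway was read from 147 other ER genes in 7 lists, of which 145 were found and none overlaps the 37. Their median log2 ratio of 2 h to 0 h was −0.04 in vehicle and −0.03 in CP25, above the −0.18 and −0.16 of all genes. The list of other unfolded protein response genes stood lowest, with a median of −0.49 in vehicle and −0.52 in CP25, and 6 and 7 of its 20 genes reached −1 or below, against 7.37% and 7.26% of all genes. PPP1R15A (GADD34), which reverses the PERK branch by restoring translation, was its lowest gene, at 8.90 ± 0.51 FPKM at 0 h and 2.08 ± 0.62 FPKM at 2 h in vehicle (SD, n = 3). NFYB, a subunit of the CCAAT-binding factor, was its highest, at 9.55 ± 0.70 and 9.65 ± 0.43 FPKM. Among other degradation genes the ligase RNF139 kept 33.2% in vehicle and 33.8% in CP25, and NGLY1, which strips glycans from retrotranslocated proteins, kept 117% and 121%. The medians of the list were −0.08 and −0.17.

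The biosynthetic lists lay higher. Translocation, signal recognition and signal peptidase genes had a median of 0.11 in vehicle and 0.08 in CP25, running from TRAM2 at 48.1% and 44.5% to SRP72, a protein of the signal recognition particle, at 136% and 133%. Other disulfide isomerase and redox genes had medians of 0.09 and 0.08, between QSOX2, a sulfhydryl oxidase, at 74.5% and 72.8% and PRDX4, an ER peroxidase, at 135% and 128%. Other lumenal folding genes had medians of 0.02 and −0.02, from DNAJB12 at 62.2% and 60.1% to NUCB2 at 135% and 142%. For N-glycan transfer and trimming the medians were −0.05 and −0.04, with MOGS, the first glucosidase of the trimming pathway, at 53.0% and 50.8% and OSTC, an oligosaccharyltransferase subunit, at 116% and 111%. ER exit and retrieval genes had medians of 0.05 and −0.01, from the coat protein SEC24B at 47.3% and 53.5% to the retrieval receptor KDELR3 at 125% and 121%. In the CP25 comparisons 145 of these pathway genes were tested at 0 h, 144 at 2 h and 145 for the difference. None passed an adjusted limma p of 0.05. The unadjusted limma p was under 0.05 for 0, 1 and 3 of them, against 0.712%, 0.741% and 1.26% of all genes.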

How the data were processed

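FPKM per gene and library were deposited by the authors in 1 table for 0 h and 1 for 2 h, with a p-value per gene for CP25 against vehicle in a further deposited table for each time. The tools listed in the submitters' processing notes are Bowtie2 2.2.3, Trimmomatic 0.36 and CASAVA 1.8.2, with the hg19 build. How the FPKM were computed is not given in the sources used here. Promoters and transcripts came from GRCh38 tables, so no coordinate of the data's own build was used. The members, gene lists, roles and tests were chosen with earlier results of these data known. From the FPKM, log2(FPKM + 1) was computed, genes averaging at least 1 FPKM in a fit were kept, and CP25 was compared with vehicle in limma 3.58.1 (R 4.3.3, mean-variance trend), without a block in the main fit. The interaction contrast came from all 12 libraries. Rows with 2 date-like duplicate symbols stayed in the fits, and 2 of 147 pathway symbols, MARCH6 and RTCB, were not matched. The fits were also run on simulated data, drawn independently for each library. Those data hold no shared effect of replicate number, so they cannot show how the fits behave when libraries are paired. Named genes were all members with their levels, the 5 members with the smallest p per CP25 comparison, and the lowest and highest gene of each pathway list. Same-numbered vehicle and CP25 libraries had deviations from their group means that correlated at 0.347, 0.440 and 0.147 at 2 h, and at 0.258, −0.0101 and 0.124 at 0 h. By the rule of all 3 above 0.1 the numbers pair the libraries at 2 h. At 0 h number 2 fell short of the rule, so whether the numbers pair there is undecided. The block raised the share of genes with an unadjusted limma p under 0.05 from 0.712% to 6.93% at 0 h, and from 0.741% to 6.93% at 2 h. Without the block both shares fall well short of what a threshold of 0.05 passes when there is no effect. The main fit thus errs towards too few calls and wide intervals. With the block, the 95% interval at 2 h excluded a 1.5-fold change of FPKM + 1 for all 37 members, HERPUD1 included (−0.23 to 0.02). The alternatives were another pseudocount, other filters on low values, median centring, quantile normalization for the CP25 comparisons, the replicate block and leaving out each library.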

Additional observations from a re-analysis of the deposited data

How the results depend on the processing

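No member tested passed an adjusted limma p of 0.05 in any CP25 comparison under any alternative run. All 37 were tested except with a minimum mean of 5 FPKM (36 at 0 h, 34 at 2 h and for the difference). At 2 h without library 3 of vehicle, 36 were tested. Over all genes, leaving out each library in turn gave 1 to 4 calls at 0 h (none with all libraries, 4 without library 1 of CP25), 1 to 7 at 2 h (1 with all, 7 without library 2 of CP25 and 5 without its library 3) and 0 to 3 for the difference (none with all, 3 without library 2 of CP25 at 0 h). With the replicate number as a block, 0, 1 and 0 genes were called, no member's call changed, and the smallest adjusted limma p of a member was 0.707, 0.716 and 0.283. The unadjusted limma p was under 0.05 for 857, 814 and 1284 genes (6.93%, 6.93% and 10.5%) and for 4, 2 and 4 members. At 0 h these members were FKBP2 (95% interval 0.11 to 0.27), SEL1L, SDF2L1 and UGGT1. For the difference they were SEC61G (95% interval −0.35 to −0.11), SDF2L1, UGGT1 and FKBP2. The number of members at a log2 ratio of −1 or below was 1 in vehicle and 2 in CP25, against 7.37% and 7.26% of all genes. With 0.1 added it was 3 and 4, and with a minimum mean of 5 FPKM, which drops ERN1, EIF2AK3 and DNAJB9 and leaves 34 members, 0 and 1. Median centring gave 1 in CP25. Leaving out 1 library gave 1 to 3 in vehicle (3 without library 2 at 0 h, 2 without library 3 at 2 h) and 2 to 4 in CP25 (4 without library 2 at 0 h). The share of all genes at that level was not computed under these other settings. The counts therefore show how the members depend on the setting, not whether they differ from all genes. The difference between sensors and regulators and the abundant chaperones, 2 h against 0 h, was −0.82 in vehicle and −0.86 in CP25. It became −0.99 and −1.05 with 0.1 added and −0.55 and −0.60 at a minimum of 5 FPKM, where those 3 are not counted, and ran from −0.87 to −0.78 and from −0.93 to −0.80 without single libraries. Estimated depth leaves the level of ERN1 with as few as 181 fragments and DNAJB9 with 75.7.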
